A study of Mus musculus with 8 samples.

Results

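Heat shock proteins and DnaJ co-chaperones were read in whole kidneys of CD-1 mice, an outbred stock, treated with tacrolimus (1 mg/kg/d, 28 days) and in kidneys of control mice given physiological serum. The members were all genes on the array whose symbol begins with Hspa, Hspb, Hspd, Hspe, Hsph or Hsp90, or with Dnaja, Dnajb or Dnajc and a number. Hspa4l, Hspbap1 and Hspbp1 were left out. The rule found 70 genes, read by 109 probes, among 34763 genes and unnamed transcripts. A gene was tested where 4 or more of the 8 arrays read it well above background, which left 65 members and 25127 genes in all. Total RNA of 4 tacrolimus kidneys and 4 control kidneys was labelled with Cy3 and hybridised to 1-colour Agilent arrays. The labels give the same strain for both groups and state no genotype, age or sex. The labels number the samples within each group without naming animals, so a p-value speaks only of the spread among these kidneys' samples, which may in part be technical.

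Chaperones of the HSP70 and HSP90 families bind unfolded or unstable proteins and release them in cycles driven by ATP. J-domain proteins (DNAJA, DNAJB and DNAJC) bring clients to HSP70 and start its ATP hydrolysis, HSP110 proteins exchange the nucleotide, chaperonins fold proteins inside a closed chamber, and small heat shock proteins hold unfolded proteins without ATP. Heat, oxidants and other protein damage activate the transcription factor HSF1, which binds heat shock elements, inverted repeats of the 5 bases NGAAN, in front of the inducible genes. Chaperones of the endoplasmic reticulum (ER) answer instead to the unfolded protein response, through an ER stress element in their promoters. Tacrolimus binds the immunophilin FKBP12 and inhibits the phosphatase calcineurin, and its long use injures the kidney.

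No member passed the test. At an adjusted p under 0.05 (limma, Benjamini-Hochberg over all 25127 genes) 0 of 65 members were called, where 57 genes in all were (0.227%). The lowest adjusted p of a member was 0.148, for Hspb1, which encodes the small heat shock protein HSP27. At an unadjusted p under 0.05, 6 of 65 members (9.23%) differed, below the 15.5% of all genes tested. Hspb1, Hspb7 and Dnajc12 were the 3 higher in tacrolimus kidneys (4.62%, against 7.04% of all genes), and Dnajc14, Dnajc22 and Dnajc11 the 3 lower (4.62%, against 8.42%). With each array scaled to its median in place of its 75th percentile, 5.64% of all genes were higher and 14.1% lower, with 3 members higher and 6 lower. Differences are tacrolimus minus control on the log2 scale throughout.

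The sequences that follow include the probe of the member with the lowest p on each side (Hspb1 and Dnajc14) and the probe of Hspa1a. The others are promoters of 4 heat-inducible members and of the ER chaperone Hspa5. Each probe has 60 bases and lies at the position its annotation gives in mouse build mm9. The Hspb1 probe reads chr5:136365366-136365425 (+), the Dnajc14 probe chr10:128256441-128256500 (+) and the Hspa1a probe chr17:35107117-35107176 (-). The annotation lists transcripts of both Hspa1a and Hspa1b for the last of these, so the 2 near-identical inducible HSP70 genes were read together. No probe carried the name Hspa1b.
Hspb1 probe: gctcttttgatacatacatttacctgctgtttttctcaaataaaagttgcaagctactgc
Dnajc14 probe: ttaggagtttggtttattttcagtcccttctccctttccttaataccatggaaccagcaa
Hspa1a probe: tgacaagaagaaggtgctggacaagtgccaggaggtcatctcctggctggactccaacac

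Promoters of 300 bases (250 before the start and 50 from it on) were taken from RefSeq, build GRCm38.p6, which held 56 of the 70 members. Capitals mark matches to 2 adjoining heat shock element units, GAANNTTC or TTCNNGAA, which are read the same on both strands. The Hspb1 window is chr5:135887669-135887968 (+), with matches that begin 117 and 97 bases before the start. The Hspa1a window is chr17:34972107-34972406 (-), with 1 match that begins 104 bases before it. The Hsph1 window, chr5:149636266-149636565 (-), has 3 matches, of which 2 overlap in a run of 13 bases after the start. The Hspe1 window is chr1:55087898-55088197 (+). Its 3 overlapping matches form 1 run of 18 bases beginning 89 bases before the start, and the run also lies in a promoter window of Hspd1, which is read in the other direction. In the Hspa5 promoter, chr2:34771840-34772139 (+), capitals mark the ER stress element, which begins 65 bases before the start.
Hspb1 promoter: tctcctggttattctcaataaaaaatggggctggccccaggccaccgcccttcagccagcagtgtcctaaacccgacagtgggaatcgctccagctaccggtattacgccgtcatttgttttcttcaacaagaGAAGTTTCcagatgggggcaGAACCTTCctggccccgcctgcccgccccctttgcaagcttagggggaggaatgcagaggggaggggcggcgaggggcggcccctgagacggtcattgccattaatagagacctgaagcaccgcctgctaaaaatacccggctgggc
Hspa1a promoter: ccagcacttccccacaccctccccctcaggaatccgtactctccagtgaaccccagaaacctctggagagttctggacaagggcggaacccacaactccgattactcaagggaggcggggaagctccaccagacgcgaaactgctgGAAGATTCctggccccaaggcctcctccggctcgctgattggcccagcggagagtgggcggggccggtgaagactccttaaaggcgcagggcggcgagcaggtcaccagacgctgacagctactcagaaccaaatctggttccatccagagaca
Hsph1 promoter: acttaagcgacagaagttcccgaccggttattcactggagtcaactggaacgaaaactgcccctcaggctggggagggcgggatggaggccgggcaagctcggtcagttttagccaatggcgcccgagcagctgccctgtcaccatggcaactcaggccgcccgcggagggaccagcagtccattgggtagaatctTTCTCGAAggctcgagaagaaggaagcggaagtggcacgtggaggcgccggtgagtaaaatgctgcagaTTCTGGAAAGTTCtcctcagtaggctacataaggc
Hspe1 promoter: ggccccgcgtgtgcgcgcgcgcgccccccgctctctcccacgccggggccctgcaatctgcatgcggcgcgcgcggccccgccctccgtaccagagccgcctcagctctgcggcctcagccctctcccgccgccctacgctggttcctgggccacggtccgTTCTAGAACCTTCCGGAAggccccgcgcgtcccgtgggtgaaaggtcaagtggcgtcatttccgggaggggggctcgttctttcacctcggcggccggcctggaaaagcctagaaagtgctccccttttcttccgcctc
Hspa5 promoter: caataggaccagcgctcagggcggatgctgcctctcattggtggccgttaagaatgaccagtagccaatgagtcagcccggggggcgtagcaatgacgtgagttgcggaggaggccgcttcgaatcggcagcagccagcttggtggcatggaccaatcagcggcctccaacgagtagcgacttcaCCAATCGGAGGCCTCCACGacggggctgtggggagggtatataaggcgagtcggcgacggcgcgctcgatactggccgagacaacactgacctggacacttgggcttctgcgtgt

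The 2-unit match stood in 15.1% of the 32851 mouse promoters in the RefSeq table and in at least 1 promoter of 17.0% of genes. It stood in 15 of the 56 members found, and in 8 of the 10 members listed as heat-inducible that the table held: Dnaja1, Dnajb4, Hspa1a, Hspb1, Hspb8, Hspd1, Hspe1 and Hsph1. The 3-unit match (GAANNTTCNNGAA or TTCNNGAANNTTC, which contains the 2-unit match) stood in 0.603% of promoters and 0.662% of genes. It stood in 4 members, Dnajb6, Hspd1, Hspe1 and Hsph1. The ER stress element, searched on both strands as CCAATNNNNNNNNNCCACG, stood in 0.119% of promoters and 0.137% of genes. It stood in 3 members, all of the ER list: Dnajc3, Hsp90b1 and Hspa5. These matches describe the letters of the windows only.

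Hspb1 gave the lowest p of the members. Its product holds unfolded proteins and binds actin filaments. Its level was 4.25, 4.73, 3.85 and 4.16 in the tacrolimus kidneys, and 3.39, 3.25, 3.87 and 3.37 in the control kidneys (log2, relative to the 75th percentile of the array, the scale of every level given here). The groups overlapped only through control 3, which lay just above tacrolimus 3. Mean levels were 4.25 ± 0.37 in tacrolimus and 3.47 ± 0.27 in control kidneys (SD, n = 4 each). The difference of 0.78 ± 0.21 (SE, as after every difference) is 1.71-fold, with a 95% interval from 0.30 to 1.25 and an unadjusted p of 0.00503. An exact two-sided permutation test, with all 70 ways of assigning arrays to groups, gave 0.0571, where the smallest possible is 0.0286.

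Hspb7, a small heat shock protein best known from heart muscle, was read at -5.31, -5.20, -5.00 and -5.11 in tacrolimus kidneys and at -5.52, -5.72, -5.58 and -5.23 in control kidneys. Only control 4 reached into the tacrolimus range. The difference was 0.36 ± 0.12 (unadjusted p = 0.0189, adjusted p = 0.238). It was 0.13 with normexp background correction (unadjusted p = 0.316) and 0.14 in the deposited value table (unadjusted p = 0.101). Smooth muscle, which carries several small heat shock proteins, is part of a whole kidney. Of its 6 markers, 2 were higher at an unadjusted p under 0.05, where 7.04% of all genes tested were. The mean level of the 6 markers, set against the control mean, was 0.06 to 0.79 in tacrolimus and -0.24 to 0.22 in control kidneys. Their summed linear level was 41.8 to 54.7 in tacrolimus and 33.5 to 43.0 in control kidneys. All 6 were well above background on every array. The part of these cells in the Hspb1 and Hspb7 values was not tested. In bulk RNA, more cells of a type and more RNA per cell cannot be told apart.

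The other 5 small heat shock proteins tested lay closer to 0. Hspb6, a smooth muscle protein also called HSP20, differed by -0.01, Hspb8, the partner of the co-chaperone BAG3, by -0.03, and Hspb2 by -0.02. Hspb11, known as the ciliary transport protein IFT25, differed by 0.04. Hspb9 had the lowest difference of the family, -0.27 ± 0.14 (unadjusted p = 0.0934). Hspb3 did not stand well above background anywhere and was not tested. The family's median difference was -0.01 over 7 genes.

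**Figure D1:**
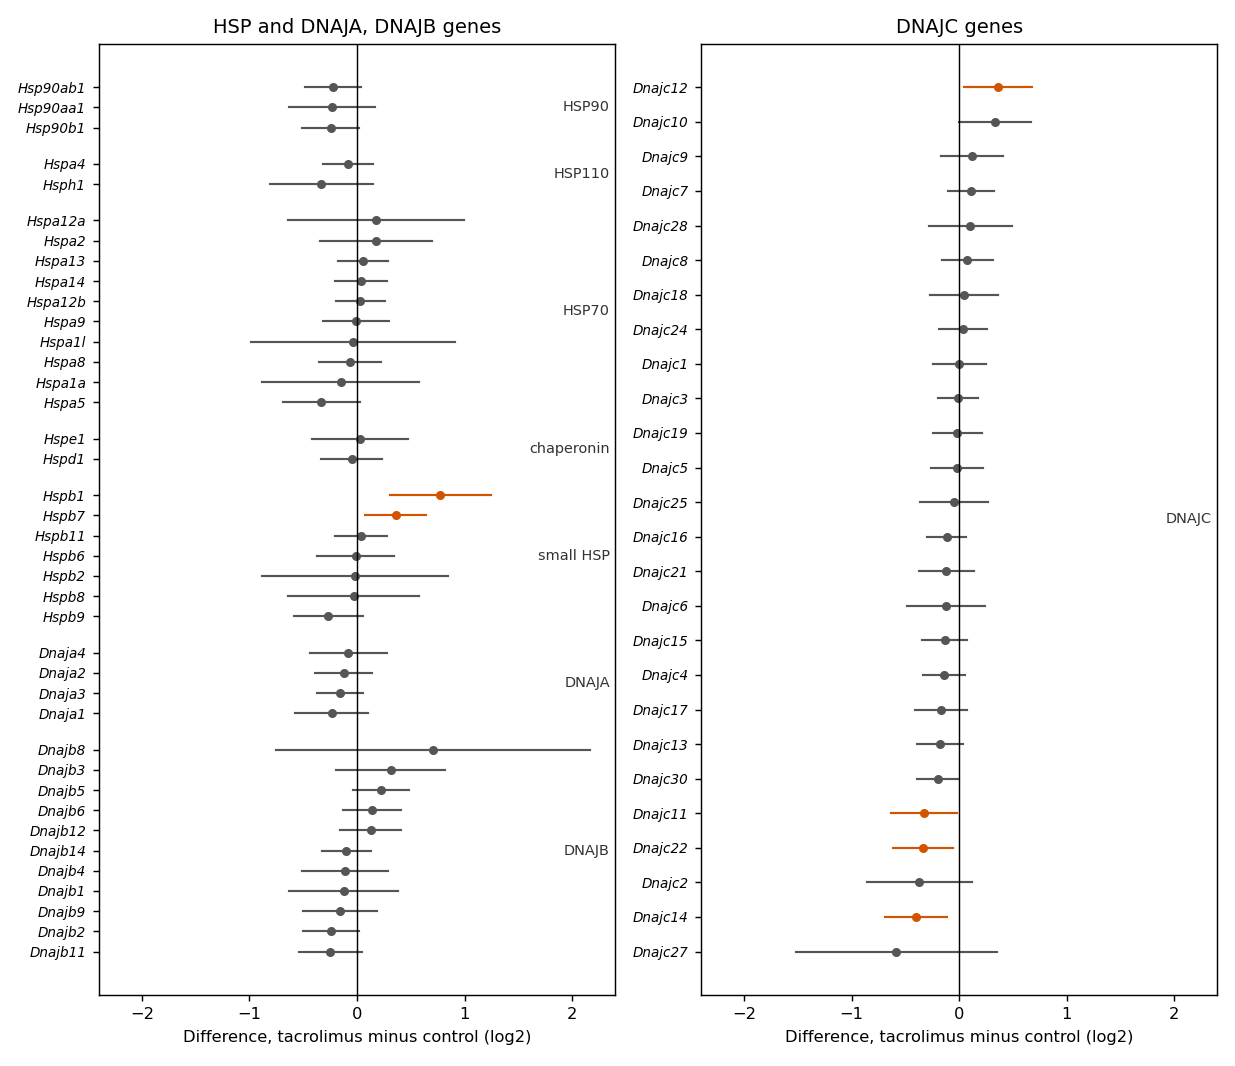
Difference (tacrolimus minus control, log2; point) and its 95% interval (line) for each of the 65 members tested, by family, with n = 4 arrays a group. The 6 members under an unadjusted p of 0.05 are orange: Hspb1, Hspb7 and Dnajc12 lie right of 0, and Dnajc11, Dnajc22 and Dnajc14 left of it.

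Across the 65 members the median difference was -0.05, equal to that of all genes tested to the second decimal. Single arrays moved it: the members' median was -0.11 without control 4 (all genes -0.07), -0.11 without tacrolimus 4 (all genes -0.06) and -0.0014 without control 3 (all genes -0.05). Of the members, 22 were fitted above 0 and 43 below, and of all genes 9930 above and 15197 below. The median size of the difference, without its sign, was 0.13 for the members and 0.16 for all genes. The plot of differences by family shows how narrow most intervals were. For 62 of 65 members the 95% interval lay within a 2-fold change in either direction, and for 43 within 1.5-fold. Hspb1, Dnajb8 and Dnajc27 had intervals that reached past 2-fold.

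The 3 HSP90 genes were each fitted below 0, as were 15197 of all 25127 genes, with no unadjusted p under 0.05. Hsp90aa1, the inducible cytosolic form, was read at 5.28, 4.98, 5.38 and 5.61 in tacrolimus and 5.33, 5.79, 5.77 and 5.28 in control kidneys (difference -0.23 ± 0.18, adjusted p = 0.539). Without tacrolimus 2 the difference was -0.12, and without control 2 it was -0.15. Over the 20 settings run (main and alternatives) it ran from -0.33 to -0.12. Hsp90ab1, the constitutive cytosolic form, was read at 6.85, 6.98, 7.05 and 6.88 in tacrolimus and 7.05, 7.22, 7.40 and 6.98 in control kidneys (-0.22 ± 0.11, adjusted p = 0.370), with a difference of -0.14 without control 3. Over the same settings the difference of Hsp90ab1 ran from -0.29 to -0.14. Both cytosolic forms overlapped between the groups. Hsp90b1, the ER form also called GRP94, was read at 5.51, 5.26, 5.32 and 5.53 in tacrolimus and 5.58, 5.78, 5.79 and 5.44 in control kidneys (-0.24 ± 0.12, adjusted p = 0.348). Only control 4 lay inside the range of the tacrolimus arrays for this gene.

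The inducible HSP70 probe differed widely between arrays. Hspa1a was read at -1.05, -1.45, -1.85 and -0.84 in tacrolimus and -1.46, -1.46, -0.27 and -1.39 in control kidneys. Control 3 stood more than 1 log2 unit above the other 3 control arrays. The difference was -0.15 ± 0.32 (adjusted p = 0.847), and 0.14 without control 3. Hspa8, the constitutive HSC70, was read at 7.60, 7.81, 8.07 and 7.84 in tacrolimus and 7.72, 7.97, 8.09 and 7.80 in control kidneys. Its difference of -0.07 ± 0.13 was smaller than the SD within the tacrolimus group (0.19) and within the control group (0.16).

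Hspa5 encodes BiP, the HSP70 of the ER, whose promoter with its ER stress element is printed above. It was read at 6.04, 5.95, 5.64 and 6.13 in tacrolimus and 6.18, 6.45, 6.52 and 5.96 in control kidneys. The 3 control arrays other than control 4 lay above all 4 tacrolimus arrays. The difference was -0.33 ± 0.16 (unadjusted p = 0.0653, adjusted p = 0.347). Hspa9, the mitochondrial HSP70 mortalin, was read at 4.92, 4.77, 5.08 and 5.32 in tacrolimus and 4.92, 5.08, 5.20 and 4.94 in control kidneys (-0.01 ± 0.13). These groups lay on top of each other. The remaining HSP70 genes ran from Hspa1l at -0.04 to Hspa12a at 0.18, and Hspa1l, a form best known from testis, was well above background on 6 of 8 arrays.

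The HSP110 protein HSP105, encoded by Hsph1, exchanges nucleotide on HSP70. Hsph1 was read at 3.93, 3.73, 3.71 and 4.09 in tacrolimus and 4.01, 4.26, 4.76 and 3.76 in control kidneys. The highest value was again control 3, and control 4 lay within the tacrolimus range. The difference was -0.33 ± 0.21 (adjusted p = 0.459), and -0.14 without control 3. Over the 20 settings run, the difference of Hsph1 ran from -0.48 to -0.14. Its second probe gave -0.32. Hspa4, the other HSP110 gene, differed by -0.08 ± 0.10.

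Hspd1 and Hspe1, which encode the mitochondrial chaperonin HSP60 and its lid HSP10, share the promoter region printed above. Hspd1 was read at 6.70, 6.69, 6.99 and 7.0 in tacrolimus and 6.77, 6.90, 7.13 and 6.77 in control kidneys (-0.05 ± 0.12). Hspe1 was read at 6.96, 6.85, 7.03 and 6.75 in tacrolimus and 6.29, 7.25, 7.05 and 6.88 in control kidneys (0.03 ± 0.20). Control 1 was the lowest of all 8 arrays for Hspe1, by its 3 probes alike (6.29, 5.88 and 3.58). Without control 1 the difference of Hspe1 was -0.17.

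Among the J-domain proteins of type A, all 4 were fitted below 0 (median -0.14) and none had an unadjusted p under 0.05. Of all 25127 genes, 15197 were fitted below 0 (median -0.05). Dnaja1, a partner of cytosolic HSP70, was read at 6.11, 6.02, 6.13 and 6.33 in tacrolimus and 6.27, 6.47, 6.72 and 6.07 in control kidneys (-0.24 ± 0.15, adjusted p = 0.458). Without control 3 the difference of Dnaja1 was -0.12, and over the 20 settings run it ran from -0.34 to -0.12. Dnajb1, the main stress-induced HSP40, was read at 4.29, 4.34, 4.14 and 4.53 in tacrolimus and 4.35, 4.39, 5.08 and 3.96 in control kidneys. The control arrays held both its highest value, on control 3, and its lowest, on control 4. The difference was -0.12 ± 0.22, and 0.09 without control 3.

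The DNAJB family had 11 members tested and none with an unadjusted p under 0.05, with 5 fitted above 0 and 6 below. Dnajb8, well above background on 5 arrays, had the widest interval of the members, from -0.75 to 2.16 around 0.70. Dnajb5 was 1 of 3 members whose groups did not overlap (4.62%, against 10.1% of all genes), chosen here after its values were seen. It was read at -0.37, -0.01, -0.26 and -0.33 in tacrolimus and -0.67, -0.42, -0.41 and -0.38 in control kidneys (0.23 ± 0.11, unadjusted p = 0.0813). The nearest arrays, tacrolimus 1 and control 4, were almost level. With quantile normalization, median scaling, normexp background correction or the mean of a gene's probes, the groups of Dnajb5 overlapped. Dnajb7 and Dnajb13 were well above background on 0 arrays and were not tested.

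The DNAJC family, the largest with 26 genes tested, held 4 of the 6 members under an unadjusted p of 0.05. Of all genes tested, 15.5% had such a p. Dnajc14, an ER membrane protein known for the transport of a dopamine receptor, was read at -0.83, -0.98, -1.17 and -1.33 in tacrolimus and -0.54, -0.73, -0.63 and -0.80 in control kidneys. All 4 tacrolimus arrays lay below all 4 control arrays, the nearest to each other being tacrolimus 1 and control 4. The difference was -0.40 ± 0.13 (unadjusted p = 0.0115, adjusted p = 0.204, exact permutation p = 0.0286, the smallest possible). Its second, dimmer probe gave -0.17 at an unadjusted p of 0.242, with overlapping groups.

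Dnajc22, whose fly counterpart Wurst is known from endocytosis, was read at 4.14, 4.07, 4.23 and 4.39 in tacrolimus and 4.46, 4.73, 4.69 and 4.32 in control kidneys (-0.34 ± 0.12, adjusted p = 0.255). Control 4 alone lay within the tacrolimus range. Dnajc11, a protein of the mitochondrial inner membrane organising complex, was read at 0.39, 0.27, 0.54 and -0.06 in tacrolimus and 0.62, 0.50, 0.74 and 0.58 in control kidneys (-0.33 ± 0.14, adjusted p = 0.303), with a difference of -0.21 without tacrolimus 4. Over the 20 settings run, the difference of Dnajc11 ran from -0.41 to -0.21. Its other 2 probes gave -0.17 and -0.20. Dnajc12, a co-chaperone of the aromatic amino acid hydroxylases, was read at 5.89, 6.03, 6.08 and 5.98 in tacrolimus and 5.97, 5.51, 5.34 and 5.71 in control kidneys (0.36 ± 0.14, adjusted p = 0.276). Only control 1 reached the tacrolimus range.

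**Figure D2:**
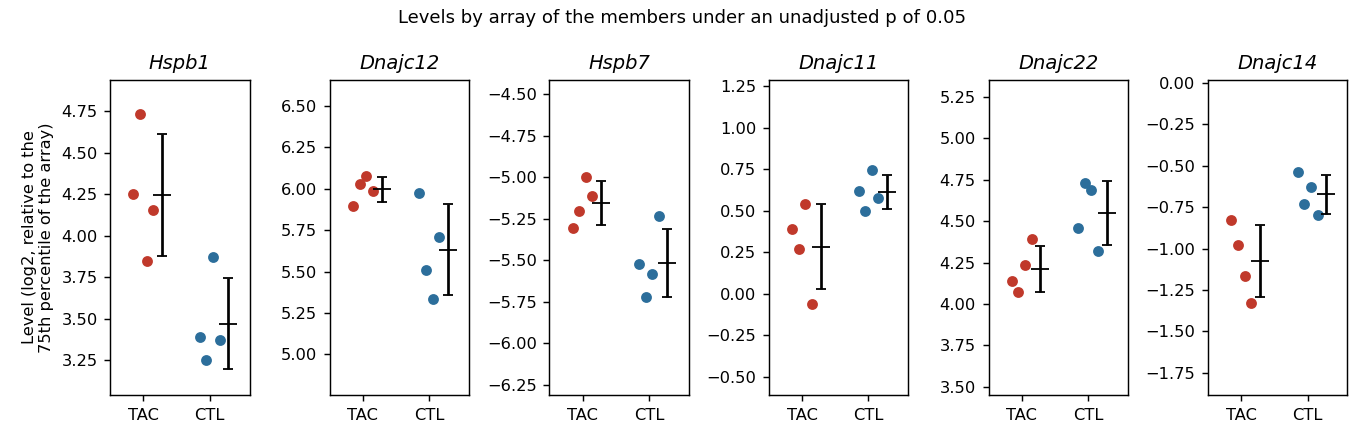
Levels (log2, relative to the 75th percentile of the array) of the 6 members under an unadjusted p of 0.05 in tacrolimus (TAC, red) and control (CTL, blue) kidneys, a point for each array, with mean and SD as bars; every panel spans the same log2 range. The groups of Dnajc14 do not overlap, while each of the other 5 has an array within the range of the other group.

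Dnajc30, which serves the mitochondrial respiratory chain, was the third member with no overlap and was also chosen after its values were seen. It was read at 3.84, 3.74, 3.78 and 3.61 in tacrolimus and 3.95, 3.99, 3.97 and 3.85 in control kidneys (-0.19 ± 0.09, unadjusted p = 0.0511). With quantile normalization, with normexp background correction and in the deposited value table its groups overlapped. The lowest difference of the family was that of Dnajc27, a small GTPase with a J domain, at -0.59 ± 0.41. Its tacrolimus arrays ranged between -5.08 and -4.50, and its control arrays between -4.91 and -2.93. Of the 26 DNAJC genes tested 8 were fitted above 0 and 18 below, with a median of -0.08, where 15197 of all 25127 genes were below (median -0.05). Dnajc5g and Dnajc5b were not tested: 0 arrays read the first well above background, and 1 array the second.

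By place in the cell, the 13 members listed as ER chaperones and co-chaperones had a median difference of -0.05, with 9 fitted below 0. They ran from Hspa5 at -0.33 to Dnajc10, a disulfide reductase also called ERdj5, at 0.33, and none of the 13 had an unadjusted p under 0.05. The list does not hold the ER membrane protein Dnajc14 (-0.40). The 9 mitochondrial members had a median of -0.05, with 7 fitted below 0 and Dnajc11 the 1 lower at an unadjusted p under 0.05. The 13 heat-inducible members had a median of -0.11, with 11 fitted below 0, and Hspb1 was the 1 higher at an unadjusted p under 0.05. Among all 25127 genes, 15197 were fitted below 0 (median -0.05), and 7.04% were higher and 8.42% lower at that p. Without control 3, Hspa1a (0.14), Dnajb1 (0.09) and Hspd1 (0.03) were fitted above 0, while Hsph1 (-0.14) and Dnaja1 (-0.12) stayed below. Of the 24 members with several detected probes, all probes gave the same direction for 18.

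The heat-inducible members often had their high and low values on the same arrays, as did the members as a whole. Among the control arrays, control 3 was the highest for 10 of the 13 genes, where it was the highest for 29.4% of all genes tested, and control 4 was the lowest for 8 of 13, where it was the lowest for 34.5% of all genes. Among the tacrolimus arrays, tacrolimus 4 was the highest for 9 of 13 heat-inducible and 10 of 13 ER members, against 30.2% of all genes. For the ER members control 3 was the highest and control 4 the lowest control array for 7 of 13 each. Over all 65 members tacrolimus 4 was the highest for 58.5%, control 3 the highest for 46.2% and control 4 the lowest for 52.3%. The mean level of the heat-inducible members, set against the control mean, was -0.10, -0.12, -0.11 and 0.07 on the tacrolimus arrays and -0.09, -0.03, 0.37 and -0.25 on the control arrays. The control arrays therefore spanned the whole range of the tacrolimus arrays. The median SD of a heat-inducible gene was 0.17 in tacrolimus and 0.28 in control kidneys, where that of all genes was 0.21 in tacrolimus and 0.17 in control kidneys.

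**Figure D3:**
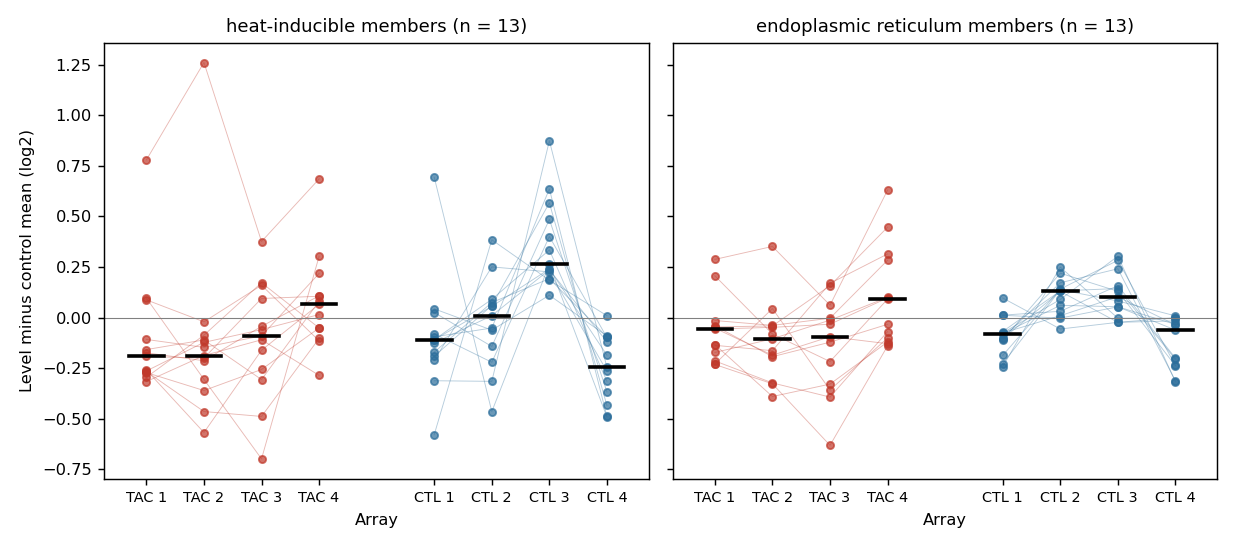
Level of each heat-inducible (left) and ER (right) member on each tacrolimus (TAC, red) and control (CTL, blue) array, minus the gene's mean over the control arrays (log2). Thin lines join the values of 1 gene within a group and black bars are medians over the 13 genes; control 3 is high and control 4 low for most heat-inducible genes, and the 2 uppermost red points, on TAC 1 and TAC 2, are Hspb1.

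Single arrays changed how many members differed at an unadjusted p under 0.05. Without control 4, 13 members were lower (20.0%, against 10.4% of all genes), among them Hspa5, Hsp90b1, Hsp90ab1, Hsph1, Dnaja1 and Dnajb11, the last an ER partner of BiP. Without tacrolimus 4, 8 were lower (12.3%, against 6.89%), and without control 3 only Dnajc14 was (1.54%, against 5.05%). With any 1 of these arrays left out, 0 members had an adjusted p under 0.05. In each of the 20 settings run, Hspb1 was higher and Dnajc14 lower at an unadjusted p under 0.05. The highest such p was 0.028 for Hspb1 and 0.0396 for Dnajc14.

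**Figure D4:**
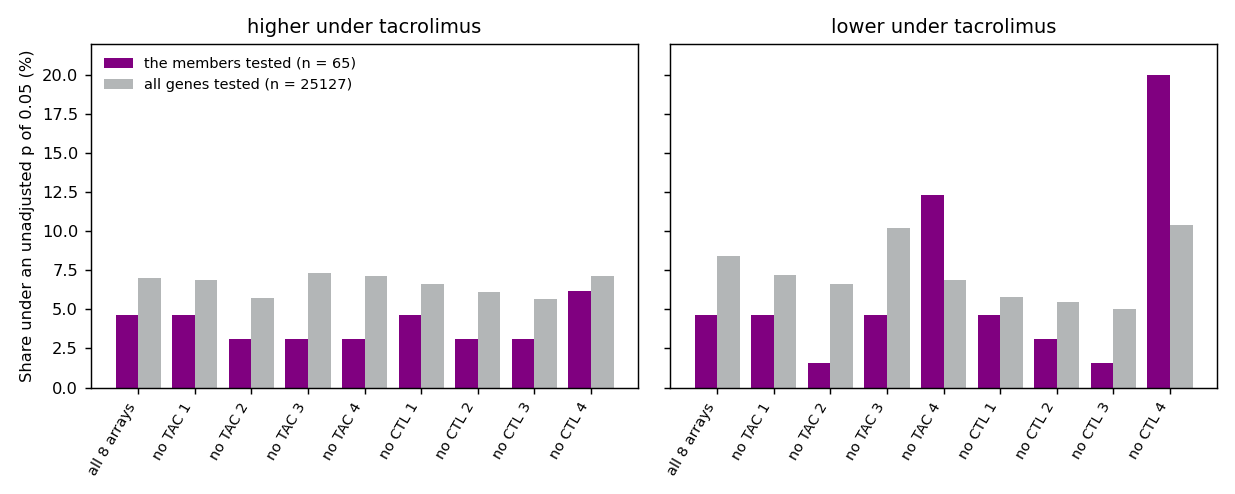
Share (%) of the 65 members (purple) and of all 25127 genes tested (grey) that were higher or lower in tacrolimus kidneys at an unadjusted p under 0.05, with all 8 arrays and with each array left out. The members' share of lower genes runs from 1.54% to 20.0% depending on the array left out, while their share of higher genes stays below that of all genes.

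Regulators and partners outside the members were read from lists by pathway. The master regulator Hsf1 was read at 1.74, 1.66, 1.40 and 1.11 in tacrolimus and 1.80, 1.70, 2.08 and 1.67 in control kidneys (-0.33 ± 0.16, unadjusted p = 0.0684, adjusted p = 0.351), with a difference of -0.21 without tacrolimus 4. Over the 20 settings run, the difference of Hsf1 ran from -0.42 to -0.21. Of its 4 tacrolimus values, 3 lay below the lowest control value. Hsf2 differed by 0.01 ± 0.13. Of 22 further HSF1 targets and HSP90 co-chaperones, 0 were called, 4 were lower at an unadjusted p under 0.05 and 0 higher, and 19 were fitted below 0 (median -0.14). Of all genes tested, 8.42% were lower and 7.04% higher at that p, and 15197 of 25127 were fitted below 0 (median -0.05).

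The HSP70-HSP90 organiser Stip1 had the lowest p of that list, with a difference of -0.40 ± 0.12 (adjusted p = 0.187), with 1.41, 1.27, 1.48 and 1.37 in tacrolimus and 1.66, 1.94, 1.97 and 1.55 in control kidneys, and these groups did not overlap. Chordc1 differed by -0.41 ± 0.14 and Ahsa1, which speeds the HSP90 ATPase, by -0.36 ± 0.13. Of 17 other ER folding genes, 2 were lower at an unadjusted p under 0.05, where 8.42% of all genes tested were. Calr, the calcium-binding lectin chaperone calreticulin, differed by -0.31 ± 0.11. Creld2, a gene of the ER stress response, differed by -0.45 ± 0.18 (-0.28 without control 3, and -0.56 to -0.28 over the 20 settings run). Sel1l, of ER-associated degradation, differed by -0.20 ± 0.09. The 13 genes of the chaperonin TRiC and prefoldin and the 8 other mitochondrial folding genes held none under that p. Tcp1 differed by -0.20, Cct3 by -0.19, Cct2 by -0.12, Grpel1, the exchange factor of mortalin, by -0.22, Clpp by -0.18 and Pam16 by -0.16.

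The share of spots well above background was 64.6% to 69.3% on tacrolimus and 64.0% to 69.8% on control arrays, 0 spots were saturated, and the labels give an RNA integrity number of 9. All 8 arrays lay on 1 slide, the tacrolimus arrays in row 2 and the control arrays in row 1, so slide row and treatment cannot be told apart. Median local background was 19.0 to 20.5 on tacrolimus and 22.0 on control arrays. The labelled tissue was borne out by its markers: all 8 proximal tubule and all 7 distal nephron markers were well above background on every array.

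Markers of other cell types differed between the groups. At an unadjusted p under 0.05, 11 of 11 mitosis genes, 10 of 12 myeloid markers (with 1 lower), 5 of 7 adipocyte markers and 4 of 8 T cell markers were higher, and the mitosis gene Birc5 was called (adjusted p = 0.0483). Of all genes tested, 7.04% were higher at that unadjusted p. The mean level of the adipocyte markers, set against the control mean, was 2.53, 1.76, 1.83 and 4.67 on the tacrolimus arrays and -0.38, 1.86, -0.72 and -0.76 on the control arrays, and their summed linear level 11.6 to 46.0 in tacrolimus and 11.5 to 15.6 in control kidneys. Lep was not tested, since it was not well above background on 4 arrays. Of the 7 adipocyte markers tested, only 3 were well above background on all 8 arrays, so the mean log2 levels rest in part on values near background. Of the 11 mitosis genes, 9 were well above background on all 8 arrays, as were all 12 myeloid and all 8 T cell markers. The array highest for these markers, tacrolimus 4, is also the one highest for most heat-inducible and ER members among the tacrolimus arrays. Among the control arrays the 2 differed. Control 2 was the highest for these markers, and control 3 for 10 of 13 heat-inducible and 7 of 13 ER members. The mean level of the myeloid markers was 0.66 to 1.51 in tacrolimus and -0.35 to 0.36 in control kidneys, with summed levels of 79.4 to 99.3 in tacrolimus and 75.6 to 86.3 in control kidneys. The T cell markers had summed levels of 6.40 to 9.85 in tacrolimus and 7.80 to 10.75 in control kidneys, and the mitosis genes 4.58 to 6.80 in tacrolimus and 1.93 to 3.37 in control kidneys. The part of these cells in the members' values was not tested.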

How the data were processed

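Scanner files of 8 arrays (4 tacrolimus, 4 control) were used. Their intensity values (background-subtracted processed signal) come from Agilent Feature Extraction, version 10.7.3.1, and mm9 annotation, as the headers of the deposited files state. The table of log2 values that the authors deposited equals the log2 of quantile-normalized raw median signals, and the submitters' processing notes name limma. It was used as an alternative. No counts or depths exist for arrays, and the number of arrays limits the precision.

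Control spots and outlier spots were left out, spots of a probe averaged, and log2 processed signal was set relative to the 75th percentile of each array. A probe was tested if well above background on at least 4 of 8 arrays, and the brightest such probe stood for a gene. Groups, taken from the labels, were compared with lmFit and eBayes of limma 3.58.1 (R 4.3.3), with Benjamini-Hochberg adjustment. The fit was tested on simulated data. Exact two-sided permutation tests used all 70 assignments.

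Of 55681 probes 28026 matched RefSeq accessions (GRCm38.p6) and 1651 were renamed, none of them a member's. The members, lists and named genes were chosen with earlier results of these data known. The key stress-response members were named whatever their values, and otherwise the members of each family under an unadjusted p of 0.05, the extremes of a family, and at most 3 genes of each pathway list by p. Alternatives covered normalization, background correction, the filter on dim probes, the choice of probe, variance modelling, a replicate block and leaving out arrays.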

Additional observations from a re-analysis of the deposited data

Results flagged for a closer look

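In 10 of 162 groups of 4 arrays looked at, 1 array stood apart from the other 3 by more than the 95% critical value of Dixon's test. Chance marks about 1 group in 20. Tacrolimus 4 accounted for 6 of them. It was the highest of its group for Dnajc3 (2.01, the others 1.85 to 1.88), Hspa13 (1.90, the others 1.58 to 1.61), Hspb8 (-0.36, the others -0.73 to -0.67) and the transcription factor gene Hsf2 (0.049, the others -0.37 to -0.34). It was the lowest for Dnajc8 (1.70, the others 1.93 to 1.95) and Hsf4 (-5.67, the others -4.83 to -4.73). Tacrolimus 2 was the highest for Dnajc13 at 2.28, the others 2.12 to 2.14, and tacrolimus 3 the lowest for Hspb2 at -2.01, the others -1.23 to -1.16. Control 3 was the highest for Hspa1a at -0.27, the others -1.46 to -1.39, and control 1 the lowest for Dnajb5 at -0.67, the others -0.42 to -0.38.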

How the results depend on the processing

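No member was called in any of the 19 alternatives, and the lowest adjusted p among their 1238 member fits was 0.0803 (Hspb1, array weights). The number of all genes called was 57, against 285 with normexp background correction, 180 in the deposited value table, 32 with no filter on dim probes, 151 with detection on all 8 arrays, 221 with an intensity trend and robust variances, 309 with array weights, 8 without control 2 and tacrolimus 4 together, and 7 to 56 with single arrays left out (7 without control 2, 13 without control 3, 13 without control 4, 18, 22 and 33 without tacrolimus 1, 2 and 3). Members lower at an unadjusted p under 0.05 numbered 3 (4.62%, all genes 8.42%), against 6 with scaling to the median of each array (9.23%, all genes 14.1%). They numbered 5 with normexp (7.69%, all genes 7.6%), 7 with trend and robust variances (10.8%, all genes 8.71%) and 8 with array weights (12.3%, all genes 10.8%). With single arrays left out they numbered 1 to 13. There was 1 without control 3 (1.54%, all genes 5.05%) and 1 without tacrolimus 2 (1.54%, all genes 6.6%). There were 8 without tacrolimus 4 (12.3%, all genes 6.89%) and 13 without control 4 (20.0%, all genes 10.4%). Members whose groups did not overlap numbered 3 (4.62%, all genes 10.1%), against 5 with median scaling (7.69%, all genes 12.9%) and 5 in the deposited table (7.69%, all genes 9.91%). They numbered 11 without control 2 and tacrolimus 4 (16.9%, all genes 17.4%), and 4 to 13 with single arrays left out. There were 5 without control 3 (7.69%, all genes 12.2%), 6 without control 2 (9.23%, all genes 12.6%) and 6 without tacrolimus 1 (9.23%, all genes 13.9%). There were 7 without tacrolimus 3 (10.8%, all genes 18.3%), 8 without tacrolimus 4 (12.3%, all genes 14.3%) and 13 without control 4 (20.0%, all genes 19.2%). Median scaling moved the median of all genes to -0.11.

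The replicate number was also the slide column in both groups. Deviations of same-numbered arrays correlated at 0.16, 0.02, 0.14 and 0.06, and those of differently numbered arrays at -0.15 to 0.06. For each control array the same-numbered tacrolimus array gave the highest correlation. Whether the numbers pair the samples, or the slide column plays a part, was not tested. With the replicate number as a block 103 genes were called, and of the members 0 were called, while 2 higher ones and 2 lower ones had an unadjusted p under 0.05 (3.08% each, against 7.99% of all genes higher and 9.55% lower).

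Of 34 named genes 26 kept their direction in every alternative. The 8 others were not called, and the cause was not tested. Hspa1a ran between -0.30 and 0.14 with single arrays left out (0.14 without control 3, 0.031 without tacrolimus 3) and Dnajb1 between -0.29 and 0.088 (the second without control 3). Hspa8 was 0.00614 in the deposited table and ran between -0.14 and 0.011 with single arrays left out. Hspa9 was 0.052 with quantile normalization and 0.039 in the deposited table, and ran between -0.11 and 0.074 with single arrays left out. Hspd1 was 0.045 with quantile normalization and 0.055 in the deposited table, and ran between -0.099 and 0.030. Hspe1 was -0.024 with median scaling, and ran between -0.17 (without control 1) and 0.16. Hsf4 ran between -0.33 and 0.026 (without tacrolimus 4), and was 0.033 without control 2 and tacrolimus 4. Hsf2 was -0.00597 with quantile normalization, -0.045 with median scaling, -0.015 with normexp, -0.00265 in the deposited table, -0.062 with array weights and -0.067 without control 2 and tacrolimus 4, and ran between -0.093 and 0.077 with single arrays left out.

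The probes of Hspa1l, Dnajb8 and Hspb7 lie near the lowest signal well above background, which limits the precision of their differences.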
